A study of Homo sapiens with 4 samples.

Results

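Non-receptor tyrosine kinases of the Src type were followed in RNA-seq libraries of HT8, a human cell line whose tissue is given as colon cancer. The 9 kinases were PTK6, SRMS, FRK, SRC, YES1, FYN, LYN, LCK and CSK, out of 58735 genes in the deposited tables. They were chosen by gene name, with the group differences of these same libraries already known, so their fold changes are given as a description and support nothing further. The libraries labelled PPDPF knockdown numbered 2 and carry the source name HT8-cas1. The control libraries, also 2, carry the source name HT8. All 4 share the cell line and tissue labels, no treatment or time is labelled for either group, and the sources used here explain neither name. They also do not state whether replicates were grown as separate cultures, so each p-value reflects only the differences among these libraries, which may be technical.

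Src family kinases are held at the inner face of the plasma membrane and pass signals from growth factor receptors and integrins to the cytoskeleton and the nucleus. An N-terminal glycine, exposed when the starting methionine is removed, takes a myristate chain that anchors the kinase. A tyrosine near the C terminus, once phosphorylated by CSK, folds the kinase into its inactive form, and tyrosine phosphatases undo that step. PTK6 (also called BRK), SRMS and FRK belong to a neighbouring branch. PTK6 is known from breast tumours and is expressed in the differentiated epithelium of the gut, SRMS is its close relative, and FRK is an epithelial kinase found in the nucleus as well as the cytoplasm.

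The coding starts and ends show how the kinases that were called higher below differ in these regulatory features. Sequences were read on GRCh38 from the coding transcripts of GENCODE 29 for 8 of the 9 kinases, without LYN. The first set holds the first 30 coding bases of the 5 kinases called higher, and of SRC as the family's prototype, 5′ to 3′ with codon 2 in capitals.
PTK6 coding start: atgGTGtcccgggaccaggctcacctgggc
SRMS coding start: atgGAGccgttcctcaggaggcggctggcc
FRK coding start: atgAGCaacatctgtcagaggctctgggag
YES1 coding start: atgGGCtgcattaaaagtaaagaaaacaaa
LCK coding start: atgGGCtgtggctgcagctcacacccggaa
SRC coding start: atgGGTagcaacaagagcaagcccaaggat

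Codon 2 encodes glycine in SRC, YES1, FYN and LCK, 4 of the 8 kinases read. In PTK6 it encodes valine, in SRMS glutamate, and in FRK and CSK serine. The second set holds the last 45 coding bases, stop codon included, of the 5 kinases called higher and of CSK, the enzyme that acts on this end. Capitals mark a tyrosine codon.
PTK6 coding end: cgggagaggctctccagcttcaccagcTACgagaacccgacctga
SRMS coding end: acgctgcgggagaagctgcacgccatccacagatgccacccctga
FRK coding end: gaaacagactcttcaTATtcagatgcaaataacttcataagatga
YES1 coding end: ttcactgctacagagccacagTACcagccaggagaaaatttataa
LCK coding end: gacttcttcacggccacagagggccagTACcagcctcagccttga
CSK coding end: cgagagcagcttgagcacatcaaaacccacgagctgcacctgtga

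A tyrosine codon stood among the last 15 codons in 6 of the 8 kinases, and not in SRMS or CSK. It was followed by 4 codons before the stop in PTK6 and LCK, by 6 in SRC, YES1 and FYN, and by 8 in FRK. The last tyrosine codon lay 32 codons before the stop in SRMS and 34 in CSK. PTK6 had 451 coding codons and CSK 450, against 488 to 543 in the other 6 kinases read. The kinases called higher thus included both kinds of N terminus, glycine in YES1 and LCK and another residue in PTK6, SRMS and FRK.

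The deposited values were FPKM, reads scaled by exon length and by library size, so levels of different genes are compared per length. Reads in genes came to 17330674 and 17069628 in knockdown replicates 1 and 2, and to 17348315 and 19479906 in control replicates 1 and 2. Mitochondrial genes took 2.35% and 2.19% of the reads in the libraries labelled knockdown and 2.87% and 2.76% in the controls. PPDPF, the gene named in the group label, was not lower there. It stood at 281 and 283 FPKM in the libraries labelled knockdown and at 237 and 266 FPKM in the controls, a log2 fold change of 0.16 (SE 0.058, limma adjusted p = 0.0940), and 5 of 13 alternative settings called it higher. The group is therefore named by its label only.

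PTK6 rose in the libraries labelled knockdown, and SRMS, FRK, YES1 and LCK were called higher with it. CSK, the kinase that restrains the Src family, stayed at about 24 FPKM in all 4 libraries, and SRC, FYN and LYN were not called. All 9 kinases passed the filter of a mean of at least 1 FPKM, 5 of 9 were called higher and 0 lower at a limma adjusted p under 0.05. Over all 12777 genes tested, 16.8% were called higher and 13.0% lower. The share called higher was larger among protein-coding genes fitted alone, 23.4% of 10766, with 2024 genes lower and 5 of the 9 kinases higher. With a filter of 5 FPKM it was 25.4% of 7876, with 1485 genes lower and 4 of 8 kinases higher. In 8 of the 9 kinases both libraries labelled knockdown lay above both controls, which held for 35.9% of all tested genes, while 33.8% lay below. The median log2 fold change was 0.21 over the 9 kinases and 0.00 over all tested genes, of which the central 90% lay between -0.46 and 0.51. With 2152 genes called higher and 1662 lower, 56.4% of all calls were higher, but 48.0% were with voom on reads recovered from the FPKM (2502 and 2709) and 46.1% when those reads were scaled without the mitochondrial ones (2414 and 2820). PTK6, FRK, YES1 and LCK were called higher under both. The 5 kinases became PTK6 and YES1 without control replicate 1, control replicate 2 or knockdown replicate 1, and PTK6 alone without knockdown replicate 2. Calls over all tested genes fell as well in each of these fits.

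**Figure D1:**
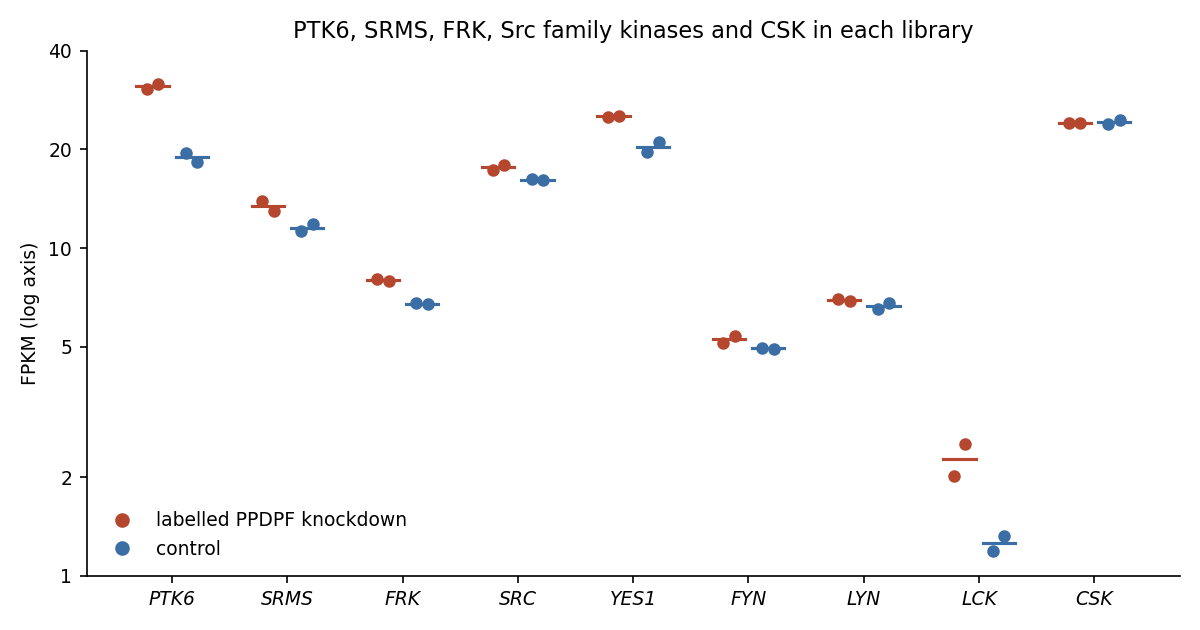
FPKM of each kinase on a log axis, with 1 point per library and a bar at the group mean (2 libraries labelled knockdown on the left, 2 controls on the right of each pair). The points of PTK6 lie at 30.7 and 31.6 against 19.5 and 18.3 FPKM, and CSK is the 1 kinase whose groups overlap.

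PTK6 (ENSG00000101213, chr20:63528001-63537370, minus strand, GRCh38) is a tyrosine kinase that phosphorylates RNA-binding proteins and adaptors. It was at 30.7 and 31.6 FPKM in the libraries labelled knockdown, against 19.5 and 18.3 FPKM in the controls. The lowest of the libraries labelled knockdown lay above the highest control, and on the log2(FPKM + 1) scale no other kinase of the 9 had a larger fold change. LCK exceeded it with a pseudocount of 0.1 (log2 fold change 0.80 for LCK and 0.72 for PTK6) and with voom on recovered reads (0.81 and 0.70). The PTK6 FPKM stood for 1559 and 1578 reads in the libraries labelled knockdown and for 1009 and 1062 reads in the controls. Counting error alone gives 95% Poisson intervals of 1483 to 1638 reads for knockdown replicate 1 and 999 to 1128 for control replicate 2. The means were 31.1 ± 0.656 FPKM in the libraries labelled knockdown and 18.9 ± 0.802 FPKM in the controls (SD, n = 2 each), a ratio of 1.65. On the log2(FPKM + 1) scale, which understates changes of low genes, the difference was 0.69 (SE 0.044, limma adjusted p = 0.00136). It ranked 262 of the 2152 genes called higher by log2 fold change. The call held in all 13 alternative settings, with log2 fold changes of 0.65 to 0.73 and adjusted p of 9.18e-10 to 0.0167.

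SRMS (ENSG00000125508, chr20:63540810-63547504, minus strand) is the neighbour and close relative of PTK6. It was at 14.0 and 13.0 FPKM in the libraries labelled knockdown and at 11.3 and 11.8 FPKM in the controls. The groups did not overlap, and the step was smaller than that of PTK6. The means were 13.5 ± 0.677 and 11.5 ± 0.397 FPKM (SD, n = 2 each, libraries labelled knockdown and controls), with a log2 fold change of 0.21 (SE 0.053, limma adjusted p = 0.0423). This call was close to the threshold: it was kept in 3 of 13 alternative settings and lost with any 1 library left out (limma adjusted p = 0.0648 to 0.162), and with voom on recovered reads (0.133). SRMS rested on 365 and 334 reads in the libraries labelled knockdown and on 300 and 352 in the controls, so the read number of control replicate 2 was above that of knockdown replicate 2 before scaling to library size.

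FRK (ENSG00000111816, chr6:115931149-116060758, minus strand), the epithelial kinase of the branch, lay at 8.02 and 7.93 FPKM in the libraries labelled knockdown and at 6.79 and 6.74 FPKM in the controls. Libraries of a group differed by little, with means of 7.98 ± 0.0658 FPKM in the libraries labelled knockdown and 6.76 ± 0.0377 FPKM in the controls (SD, n = 2 each). The log2 fold change was 0.21 (SE 0.046, limma adjusted p = 0.0281). Leaving out any 1 library ended the call, although the log2 fold change stayed at 0.20 to 0.22. The call was kept in 6 of 13 alternative settings, both voom fits among them.

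YES1 (ENSG00000176105, chr18:721588-812546, minus strand), a broadly expressed Src family member, was at 25.1 and 25.4 FPKM in the libraries labelled knockdown and at 19.7 and 21.1 FPKM in the controls. Both libraries labelled knockdown were above both controls, and the controls were further apart than the libraries labelled knockdown. Its log2 fold change was 0.30 (SE 0.045, limma adjusted p = 0.0101). Without knockdown replicate 2 the adjusted p was 0.0529, and without each other library it stayed under 0.05.

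SRC (ENSG00000197122, chr20:37344685-37406050, plus strand), the prototype of the family, was at 17.4 and 17.9 FPKM in the libraries labelled knockdown and at 16.2 and 16.1 FPKM in the controls. The groups did not overlap, but the log2 fold change of 0.12 (SE 0.039) missed the threshold (limma adjusted p = 0.0747), also in each of the 13 alternative settings. FYN (ENSG00000010810, chr6:111660332-111873452, minus strand), known from adhesion and T cell receptor signalling, was at 5.11 and 5.40 FPKM in the libraries labelled knockdown and at 4.96 and 4.93 FPKM in the controls. LYN (ENSG00000254087, chr8:55879813-56014168, plus strand), known mainly from B cells and myeloid cells, was at 7.01 and 6.90 FPKM in the libraries labelled knockdown and at 6.52 and 6.81 FPKM in the controls. In both genes the groups stood apart by a narrow margin, and the log2 fold changes of 0.07 and 0.05 were not called (limma adjusted p = 0.382 for FYN and 0.464 for LYN).

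LCK (ENSG00000182866, chr1:32251239-32286165, plus strand), the kinase that starts T cell receptor signalling, was the least abundant of the 9. It was at 2.01 and 2.53 FPKM in the libraries labelled knockdown and at 1.19 and 1.33 FPKM in the controls, from 116 and 143 reads in the libraries labelled knockdown and 70 and 87 in the controls. The groups did not overlap, although the libraries labelled knockdown lay further apart than those of any other kinase here relative to their mean. The ratio of mean FPKM was 1.80 and the log2 fold change 0.53 (SE 0.12, limma adjusted p = 0.0317), the second being smaller because 1 FPKM is added before the log. Any 1 library left out ended the call, at log2 fold changes of 0.42 to 0.64. The call was kept in 6 of 12 alternative settings, both voom fits among them.

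LCK is known mainly from T cells, so the T cell markers are given beside it. Of 8 markers, 5 were at 0 in every library: CD3D, CD3E and CD3G, the defining genes of that lineage, CD2, which natural killer cells also carry, and PTPRC, which all leukocytes carry. The 8 summed to 0.780 and 0.886 FPKM in the libraries labelled knockdown and to 1.13 and 1.51 FPKM in the controls. CD8A made up most of that sum, at 0.638 and 0.698 FPKM in the libraries labelled knockdown and 0.986 and 1.44 FPKM in the controls. ZAP70, the kinase that acts after LCK in T cells, had 7 and 13 reads in the libraries labelled knockdown and 2 and 1 in the controls. The sums of 4 B cell, 6 myeloid, 5 fibroblast and 4 endothelial markers each stayed at or under 2.22 FPKM in every library.

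CSK (ENSG00000103653, chr15:74782057-74803198, plus strand) phosphorylates the C-terminal tyrosine of Src family members. It was at 24.1 and 24.1 FPKM in the libraries labelled knockdown and at 23.9 and 24.6 FPKM in the controls. The controls enclosed the libraries labelled knockdown, and the log2 fold change was -0.01 (SE 0.036, limma adjusted p = 0.863). Its sign turned without control replicate 2, at 0.01. Other relatives were nearly silent. FGR and BLK, blood cell kinases, had at most 3 reads in any library, and MATK, the relative of CSK, had 12 and 10 reads in the libraries labelled knockdown and 1 and 0 in the controls, all below the filter.

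**Figure D2:**
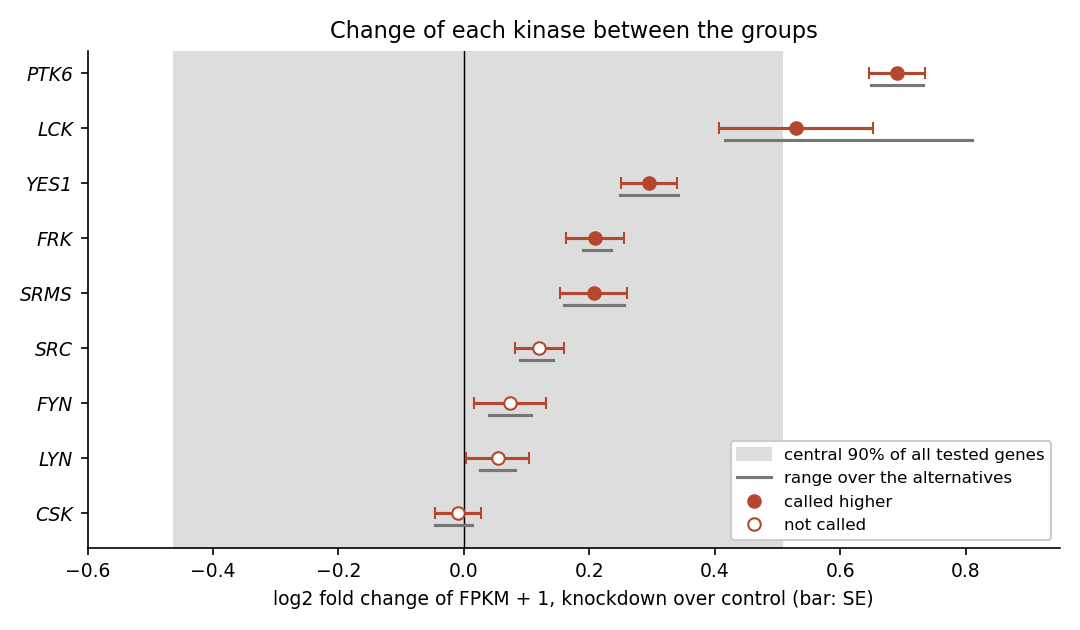
Log2 fold change of FPKM + 1, knockdown over control, of the 9 kinases in order of size, with SE as error bars, the range over alternative settings as a grey line and the central 90% of all tested genes (-0.46 to 0.51) as a grey band. PTK6 at 0.69 and LCK at 0.53 lie beyond the band, and the line of LCK reaches back into it.

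The order of the kinases by level differed at its top between the groups. Order and shares between genes depend on the annotated exon length by which reads are divided. FRK, with 13230 exon bases against 2947 for PTK6, had more reads than PTK6 in every library but a lower FPKM. In the libraries labelled knockdown PTK6 came first, then YES1, CSK, SRC, SRMS, FRK, LYN, FYN and LCK, and no neighbours in that order overlapped. In the controls CSK came first, then YES1, PTK6, SRC and the other 5 in the same sequence. FRK and LYN overlapped there, and YES1 and PTK6 were parted by 0.221 FPKM between their closest libraries. Summed over the 9 kinases, FPKM came to 133 and 135 in the libraries labelled knockdown and to 110 and 112 in the controls. PTK6 made up 23.0% and 23.4% of that sum in the libraries labelled knockdown, against 17.7% and 16.4% in the controls. CSK made up 18.1% and 17.9% in the libraries labelled knockdown, against 21.7% and 22.1% in the controls. The share of YES1 overlapped, at 18.8% in both libraries labelled knockdown and 17.9% and 18.8% in the controls.

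Ratios within a library, which any common scaling factor leaves as they are, moved as the levels did. PTK6 over SRC was 1.77 and 1.76 in the libraries labelled knockdown and 1.20 and 1.14 in the controls. PTK6 over SRMS was 2.20 and 2.43 in the libraries labelled knockdown and 1.73 and 1.55 in the controls, so the neighbours did not move by the same factor. CSK over the summed FPKM of SRC, YES1, FYN, LYN and LCK was 0.425 and 0.415 in the libraries labelled knockdown, against 0.492 and 0.491 in the controls. These are ratios of transcripts, and neither kinase protein nor its phosphorylation was measured.

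**Figure D3:**
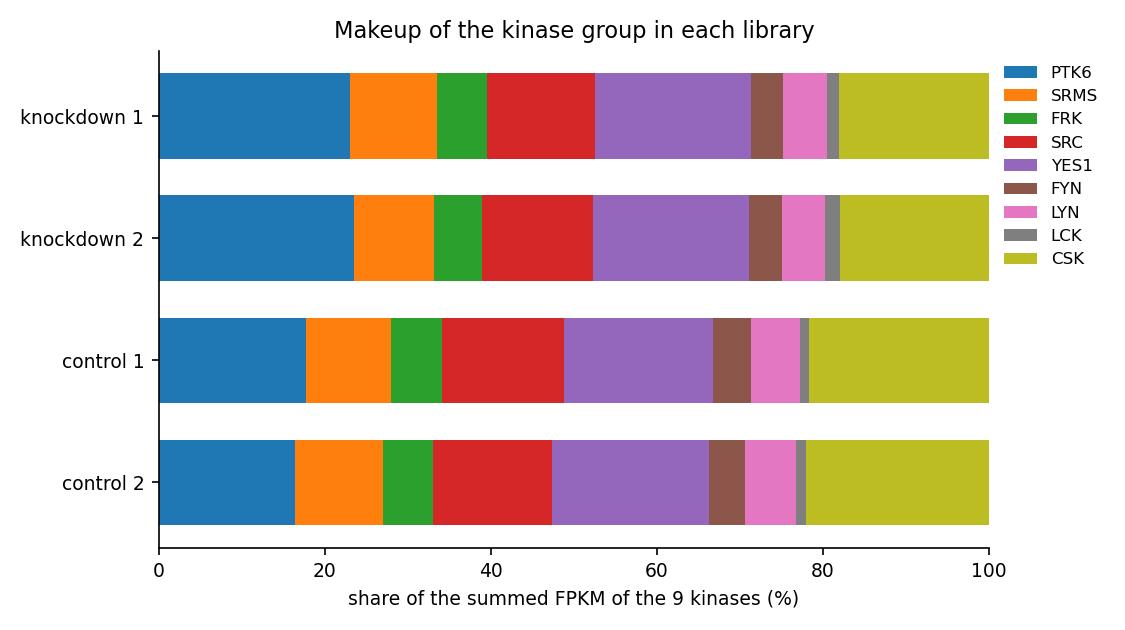
Share of each kinase in the summed FPKM of the 9, in percent, with 1 bar per library and the libraries labelled knockdown above the controls. The PTK6 segment is wider (23.0% and 23.4% against 17.7% and 16.4%) and the CSK segment narrower in the libraries labelled knockdown.

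PTK6 and SRMS lie near the end of the long arm of chromosome 20, beside PPDPF. PPDPF runs on the plus strand and PTK6 on the minus strand, and their ends of transcription are 5794 bases apart. SRMS lies 3439 bases upstream of PTK6 on the same strand, while SRC lies 26.1 Mb away on that chromosome. Genes annotated across the 9 kinases on either strand had at most 6 reads in any library.

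Genes around PTK6 were called in both directions, with more higher than lower within 1 Mb. Of 20 listed neighbours, 11 could be tested, of which 3 were called higher and 3 lower, beside 16.8% and 13.0% of all tested genes. The median log2 fold change of the listed neighbours was 0.08. ZBTB46, a zinc finger transcription factor gene, rose to 5.78 and 6.01 FPKM in the libraries labelled knockdown, against 4.22 and 3.99 FPKM in the controls (log2 fold change 0.43, limma adjusted p = 0.00755). ARFGAP1, a GTPase-activating protein of Golgi transport, was called at 0.26 (limma adjusted p = 0.0178) and SLC2A4RG, a transcription factor gene, at 0.15 (0.0287). On the lower side, HELZ2, a nuclear receptor coactivator, was at 19.5 and 19.7 FPKM in the libraries labelled knockdown and at 26.5 and 30.7 FPKM in the controls (log2 fold change -0.52, limma adjusted p = 0.00816). EEF1A2, a translation elongation factor, was also called lower (-0.20, limma adjusted p = 0.0107) as was STMN3, a stathmin (-0.50, 0.0396). EEF1A2 and HELZ2 lie on either side of PPDPF, PTK6 and SRMS. The calls of SLC2A4RG and STMN3 were lost with any 1 library left out, that of ARFGAP1 without control replicate 1, control replicate 2 or knockdown replicate 1, and that of EEF1A2 without knockdown replicate 1. Calls over all tested genes fell too when 1 library was left out.

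YTHDF1, PPDPF, GMEB2, ARFRP1 and ZGPAT were tested and not called, at log2 fold changes of 0.03 to 0.16. The other 9 of the 20 averaged under 1 FPKM, with TNFRSF6B listed at 0 throughout. The annotation of TNFRSF6B overlaps that of ARFRP1, and how overlapping reads were counted is not stated. Its 0 therefore need not mean that the transcript was absent. Within 1 Mb of the PTK6 start, 43 other genes were tested, of which 13 were called higher and 4 lower, beside 16.8% and 13.0% of all tested genes. The median log2 fold change in this window was 0.14. The medians of the other surroundings were -0.03 for FRK, 0.06 for SRC, -0.02 for YES1, -0.13 for FYN, 0.09 for LYN, 0.05 for LCK and -0.02 for CSK, over 5 to 33 genes.

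**Figure D4:**
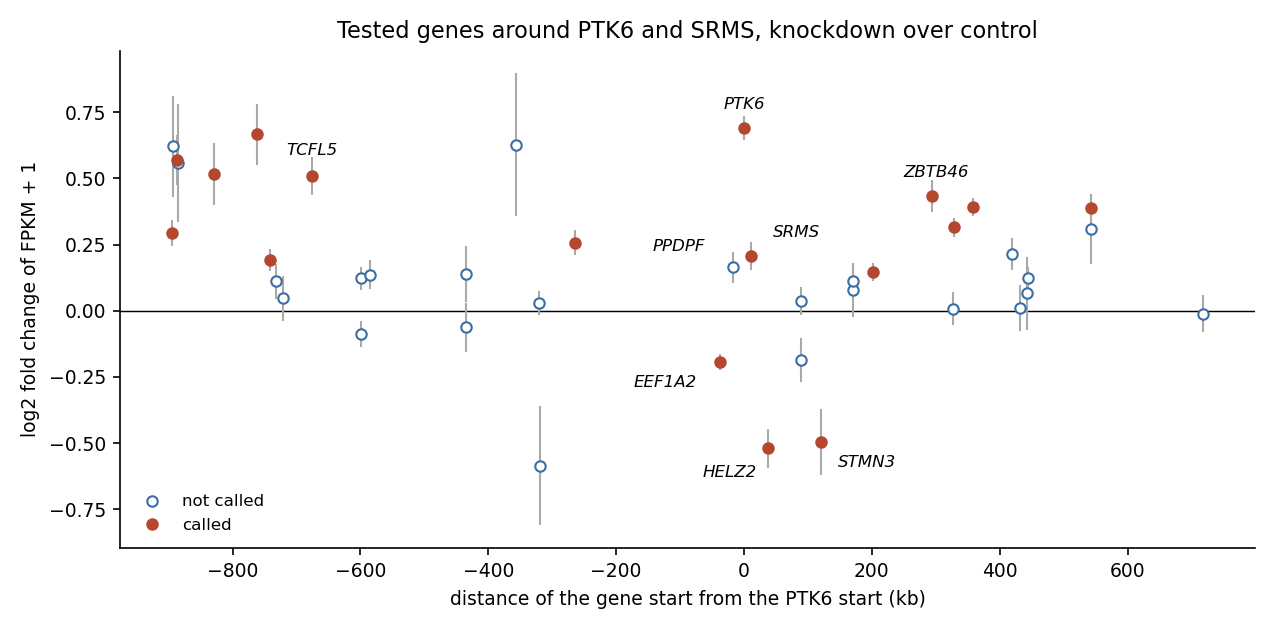
Log2 fold change of FPKM + 1 with SE for 41 of the 44 tested genes within 1 Mb of the PTK6 start, PTK6 included, against the distance of their starts in kb; 3 genes with an SE of 0.3 or more are left out, and filled points were called. PTK6 at 0.69 stands between PPDPF at 0.16, SRMS at 0.21, and the lower genes EEF1A2, HELZ2 and STMN3.

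The genes that act on or with these kinases were read from lists, whose members were also chosen with results of these libraries known. The lists overlap, so their counts and medians are not separate observations. PTK2, PXN, BCAR1, ARHGAP35, CBL and PTK2B stand in more than 1 list and count in each. Among 17 phosphatases, adaptors and ubiquitin ligases of Src kinases, 14 were tested, 7 were called higher and 0 lower. Over all tested genes, 16.8% were called higher and 13.0% lower. The median log2 fold change of the list was 0.18. PTPN1, a phosphatase known to remove the inhibitory phosphate of SRC, was at 23.7 and 23.4 FPKM in the libraries labelled knockdown and at 19.7 and 18.8 FPKM in the controls (log2 fold change 0.28, limma adjusted p = 0.00829). PTPRJ, a receptor phosphatase that acts on Src kinases, was at 4.92 and 4.68 FPKM in the libraries labelled knockdown and at 2.98 and 2.96 FPKM in the controls (0.55, 0.00486). Both phosphatases stood clear of the controls. CBL, a ubiquitin ligase that takes down active tyrosine kinases, was called at 0.28 (limma adjusted p = 0.0106), and CDC37, the co-chaperone that brings kinases to HSP90, at 0.21 (0.0149). The call of CBL was lost without either control or without knockdown replicate 1, and that of CDC37 without control replicate 1 or without either library labelled knockdown. With 1 library left out, fewer genes of the list were called higher, as over all tested genes. The log2 fold changes of PTPN1 were then 0.25 to 0.31 and those of PTPRJ 0.52 to 0.58. PTPRA, a phosphatase classically tied to SRC activation, overlapped, with 15.6 and 17.4 FPKM in the libraries labelled knockdown and 16.5 and 16.7 FPKM in the controls. PAG1, the membrane adaptor that recruits CSK, was not called (log2 fold change 0.15, limma adjusted p = 0.206).

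PTK6 partners and substrates gave 21 tested of 25 listed, with 9 called higher and 2 lower, beside 16.8% and 13.0% of all tested genes. The median log2 fold change of the list was 0.05. STAT5A, a transcription factor gene of the list, was at 3.87 and 3.91 FPKM in the libraries labelled knockdown and at 1.80 and 1.88 FPKM in the controls (log2 fold change 0.78, limma adjusted p = 0.00298). PXN, the focal adhesion adaptor paxillin, was at 43.9 and 42.0 FPKM in the libraries labelled knockdown and at 31.2 and 30.7 FPKM in the controls (0.46, 0.00212). MET, the receptor of hepatocyte growth factor, was called at 0.47 (limma adjusted p = 0.00280), and PTK2, the focal adhesion kinase, at 0.64 (0.00186). All 4 stood clear of the controls, but MET and PTK2 lie among genes that were higher too: 4 of 5 tested genes within 1 Mb of MET (median 0.58) and 5 of 6 around PTK2 (median 0.70) were called higher. Around PXN and STAT5A the medians were 0.01 and -0.01. KHDRBS1 (Sam68), the RNA-binding protein best known as a PTK6 substrate, overlapped between the groups, at 70.6 and 74.9 FPKM in the libraries labelled knockdown and 68.3 and 72.0 FPKM in the controls. STAT5B and STAT3, also listed, were not called (log2 fold changes -0.03 and -0.01, limma adjusted p = 0.613 and 0.929). AKT1 and ARHGAP35 were the genes called lower, with log2 fold changes of -0.16 each. With 1 library left out, fewer genes of the list were called in either direction, as over all tested genes. The genes called lower became 4 with quantile normalization, where 1883 of all 12777 tested genes were lower. They became 5 with a filter of 5 FPKM (1485 of 7876) or protein-coding genes only (2024 of 10766). With voom on recovered reads they became 6, total or non-mitochondrial (2709 and 2820 of 12777).

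Of 34 substrates and scaffolds of Src kinases, 33 were tested, 16 were called higher and 4 lower, beside 16.8% and 13.0% of all tested genes. The median log2 fold change of the list was 0.23. CAV1, the caveolar scaffold caveolin, was at 9.34 and 9.38 FPKM in the libraries labelled knockdown and at 2.49 and 2.87 FPKM in the controls. Its log2 fold change of 1.49 (limma adjusted p = 0.000904) was the largest of the list on this scale, and 4 of 5 tested genes within 1 Mb were called higher as well, at a median of 0.47. MET is among those genes, so the windows around CAV1 and MET overlap on chromosome 7 and are not separate observations. AFAP1L2, an adaptor of SRC, had the larger ratio of mean FPKM, 5.18 against 3.49 for CAV1, at 2.52 and 2.87 FPKM in the libraries labelled knockdown and 0.452 and 0.589 FPKM in the controls (log2 fold change 1.28, limma adjusted p = 0.00306). TNS4, a tensin of focal adhesions, was at 78.0 and 77.7 FPKM in the libraries labelled knockdown and at 102 and 100 FPKM in the controls (log2 fold change -0.37, limma adjusted p = 0.00189). TNS3, its relative, moved the same way (-0.31, limma adjusted p = 0.00745). EZR (ezrin), CTTN (cortactin) and BCAR1 (p130Cas), cytoskeletal substrates of SRC, had log2 fold changes of 0.38, 0.25 and 0.39 and were called higher. The genes called lower became 7 with voom on recovered reads, total or non-mitochondrial, beside 2709 and 2820 of all 12777 tested genes. With 1 library left out, fewer genes of the list were called in either direction, as over all tested genes.

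The list of enzymes and carriers for the lipid-modified N terminus, which also holds the methionine aminopeptidases and the carriers of acylated proteins, had 17 tested genes. Of these, 4 were called higher and 1 lower, beside the 16.8% and 13.0% of all tested genes, with a median log2 fold change of 0.07. NMT1, the main myristoyltransferase, was not called (log2 fold change 0.13, limma adjusted p = 0.0538). NMT2, its isoenzyme, was called lower, at 3.37 and 3.29 FPKM in the libraries labelled knockdown and 4.40 and 4.63 FPKM in the controls (-0.35, limma adjusted p = 0.0164), and the call was lost with any 1 library left out. LYPLA2, a thioesterase that removes palmitate, was at 70.4 and 71.3 FPKM in the libraries labelled knockdown and at 59.3 and 56.9 FPKM in the controls (0.28, limma adjusted p = 0.00550). LYPLA1, its relative, and ZDHHC5, a palmitoyltransferase, were called with log2 fold changes of 0.17 and 0.16, and both calls were lost with any 1 library left out (limma adjusted p up to 0.113 and 0.111). With quantile normalization 1 gene of the list was called higher and 1 lower, beside 1948 and 1883 of all 12777 tested genes. With voom on recovered reads 7 and 3 were, beside 2502 and 2709 of all. Without the mitochondrial reads 6 and 3 were, beside 2414 and 2820. With 1 library left out, fewer genes of the list were called higher, as over all tested genes.

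Among 19 other cytoplasmic tyrosine kinases 12 were tested, of which 6 were called higher and 0 lower, beside 16.8% and 13.0% of all tested genes. The median log2 fold change of the list was 0.18. TNK2 (ACK1), an effector of the GTPase CDC42, was at 7.73 and 7.40 FPKM in the libraries labelled knockdown and at 4.74 and 4.74 FPKM in the controls (log2 fold change 0.58, limma adjusted p = 0.00268). JAK1, the kinase of cytokine receptors, was called at 0.41 (limma adjusted p = 0.00275), and PTK2B (PYK2), the relative of PTK2, at 0.41 (0.00702). ABL1, SYK, JAK2 and TYK2 were not called, at -0.15 to -0.06. With voom on recovered reads 1 gene of the list was called lower, and 2 were without the mitochondrial reads. Over all 12777 tested genes, 2709 and 2820 were called lower in these 2 settings.

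**Figure D5:**
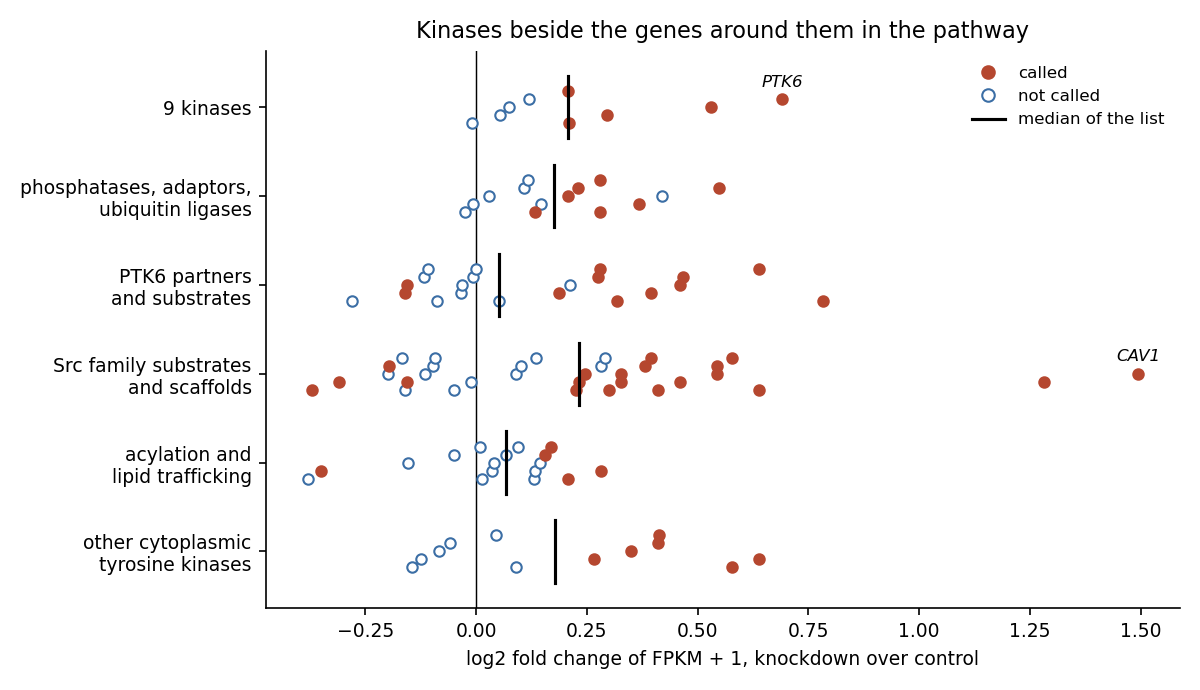
Log2 fold change of FPKM + 1, knockdown over control, of every tested gene of the 9 kinases and of 5 lists around them, with 1 point per gene (filled where called) and a bar at the list's median. The medians lie between 0.05 and 0.23, beside 0.00 over all tested genes, and CAV1 at 1.49 is the highest point. Genes that stand in more than 1 list, such as PTK2 and PXN, have a point in each.

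Colon epithelium markers were read beside the tissue label and because PTK6 is known from that tissue. Of 12 colon epithelium markers 10 were tested, of which 6 were called higher and 1, CDH1, lower, beside 16.8% and 13.0% of all tested genes. The 12 markers summed to 3168 and 3143 FPKM in the libraries labelled knockdown and to 2624 and 2807 FPKM in the controls. Most of that sum came from the keratins KRT8, KRT19 and KRT18, at 1121, 875 and 713 FPKM in knockdown replicate 1. The sum therefore says little about the other markers and does not check the tissue label. No marker was at 0 in every library, but CEACAM5 and GPA33 fell below the filter. CEACAM5 was at 1.00 and 1.16 FPKM in the libraries labelled knockdown and 0.238 and 0.349 FPKM in the controls. GPA33 had 8 and 1 reads in the libraries labelled knockdown and 2 and 12 in the controls. KRT20, a keratin of differentiated colon cells, was at 2.61 and 2.94 FPKM in the libraries labelled knockdown and at 0.339 and 0.717 FPKM in the controls. CDX2, the intestinal transcription factor, was at 41.8 and 39.2 FPKM in the libraries labelled knockdown and at 42.4 and 49.2 FPKM in the controls. It was not called (log2 fold change -0.17, limma adjusted p = 0.160). In bulk RNA, fewer cells of a type and less RNA per cell cannot be told apart, and the part of these markers in the level of PTK6 was not tested.

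The 5 tested genes whose centred log2 values over the 4 libraries lay nearest to those of PTK6 were CYHR1, ATP9A, SLC25A20, EPS8L1 and MYO10, at distances of 0.0157 to 0.0480. CYHR1, the nearest, was at 9.46 and 9.62 FPKM in the libraries labelled knockdown and at 5.68 and 5.33 FPKM in the controls. Of 61 other genes tested within 1 Mb of it, 49 were called higher, and their median was 0.54 on the log2 scale. EPS8L1, a relative of an actin regulator, was at 15.3 and 15.6 FPKM in the libraries labelled knockdown and at 9.16 and 8.63 FPKM in the controls, with a median of -0.02 around it. Over 4 libraries such nearness mostly restates that these genes had a log2 fold change like that of PTK6.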

How the data were processed

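The authors deposited FPKM per gene, in 1 table per library. HISAT2 2.0.5 and hg18 come from the submitters' processing notes. The sources used here name no counting tool, strand setting or filter, so reads of overlapping or antisense genes cannot be told apart. All 58735 gene IDs matched GENCODE 29, so coordinates are on GRCh38. The FPKM multiplied by its exon lengths gave whole reads for 100% of values, within 0.01 of a read. The authors' divisor differed from the reads in genes by -0.415% and -0.664% (libraries labelled knockdown) and 1.37% and 0.895% (controls).

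The 12777 genes averaging 1 FPKM or more were compared with limma (3.58.1, R 4.3.3, trended variance) as log2(FPKM + 1), 2 libraries labelled knockdown against 2 controls by genotype label, leaving 2 residual degrees of freedom. Benjamini-Hochberg adjustment of the two-sided p-values ran over all tested genes, with calls under 0.05. The fit was also run on simulated data with larger changes than those of SRMS, FRK and YES1. Its outcome is not reported here and does not bear on calls of that size. Members and lists were chosen with earlier results of these data known. Named genes were all 9 kinases, PPDPF and the listed neighbours, up to 4 genes of smallest p per list, and the 5 nearest to PTK6 over the libraries; others were named after their values were seen, and some listed genes are not reported here. Alternatives were an adjusted p under 0.01, a block for the replicate number, quantile normalization, leaving out each library, a pseudocount of 0.1, no filter, a filter of 5 FPKM on the mean, protein-coding genes only, a window of 2.5 Mb, and voom on recovered reads, total or non-mitochondrial. Read intervals are exact Poisson intervals at 95% and cover counting error only.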

Additional observations from a re-analysis of the deposited data

How the results depend on the processing

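PTK6 was called higher in each of the 13 alternative settings, and no called kinase changed direction in any of them. The 5 kinases called higher became 2 with no filter on low values, 1 at an adjusted p under 0.01, and 1 to 2 with 1 library left out. With the replicate number as a block, 3 of the 9 kinases were called (PTK6, YES1 and LCK). Deviations of same-numbered libraries correlated at -0.00206 over 12777 genes. This shows no shared deviation, but it cannot tell whether same-numbered libraries were grown or prepared together. Of all tested genes, 2152 were called higher and 1662 lower. These counts became 1134 and 734 with no filter, 927 and 589 at an adjusted p under 0.01, and 1141 to 1345 and 775 to 919 with 1 library left out. The lower calls came to 2709 with voom on recovered reads and to 2820 with reads outside the mitochondrial genome. Among named genes, 393 values kept their side of the threshold, 76 lost a call and 5 gained one. At 2.5 Mb, the medians around YES1, FYN and CSK became 0.047, -0.082 and -0.0087. Each of these changes was larger than the SD of that median over the libraries labelled knockdown. The median around LYN went from 0.092 to 0.054, a change within its wider SD of 0.082. LCK had the fewest reads of the 9, 70 to 143 per library.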
